A study of Homo sapiens with 2 samples.

Results

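The TRAIL and FAS death receptor system was described in 2 subclones of HMC1, an established cell line of human mast cell leukaemia. Its 10 genes were the TRAIL receptors TNFRSF10A, TNFRSF10B, TNFRSF10C and TNFRSF10D, the ligand TNFSF10 (TRAIL), FAS and its ligand FASLG, the TNF receptor TNFRSF1A, the adaptor FADD and the initiator caspase CASP8. Members were all probe sets that the annotation of the Affymetrix U133 Plus 2.0 array assigns to these genes, which gave 30 probe sets of 54675. All 10 genes of the 19775 named genes were measured, and 7 of them were among the 3564 genes that reached an intensity of 64 on at least 1 array, the floor used here for comparing genes. The genes were chosen by their intensities and differences on these same arrays, so every value below is a description and none is a test.

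Cells had been sorted with an anti-CD2 antibody. The CD2-positive group was a subclone with CD2 on its surface and the CD2-negative group a subclone without it, each with 1 array of total RNA. Both came from the same parent line, and the labels record no drug, time point or genetic change that would separate them further. Each group stands for a single subclone of 1 leukaemia line, so differences between subclones and differences linked to CD2 cannot be told apart, and no value has an error between replicates. All differences are log2 of the CD2-positive minus the CD2-negative intensity.

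Death receptors are membrane proteins of the TNF receptor family with a death domain in their cytoplasmic part. Binding of FAS ligand to FAS, or of TRAIL to TNFRSF10A (DR4) or TNFRSF10B (DR5), brings in the adaptor FADD, which recruits caspase-8, and the activated caspase cleaves effector caspases and the protein BID. TNFRSF10C (DcR1) and TNFRSF10D (DcR2) also bind TRAIL but cannot pass on a complete death signal, the former because it lacks a cytoplasmic part and the latter because its death domain is truncated. TNFRSF1A, the main TNF receptor, reaches FADD and caspase-8 only through further adaptors. Mast cells are known to carry receptors for these ligands.

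Summed intensities were 1860969 (CD2-positive) and 1875750 (CD2-negative) and the median was 4 on each array, a likeness that quantile normalisation within RMA imposes. The 18 hybridisation controls, bacterial and phage transcripts added to each sample, read lower on the CD2-positive array by a median log2 difference of -0.18. The 27 control probe sets for Bacillus RNA, which mark the level without a target, read 1 to 4. CD2 itself read 219 on the CD2-positive array against 13 on the other, which follows the labels. Of 9 measured mast cell markers 7 were above the floor on these arrays, with a summed intensity over the 9 of 9901 and 6412, while the chymase gene CMA1 read 2 on each. Of 14 T and NK cell markers, genes of cells known to make FAS ligand, only PRF1 (1060 and 1081) was above the floor. GZMB read 57 and 42, below the floor but well above the Bacillus controls. A further 10 read 4 or less on both arrays, CD3G, CD8A and NKG7 among them. Sums over the 14 were 1156 and 1166. No B cell marker (5 measured, sums 22 and 20) and no monocyte or macrophage marker (7 measured, sums 17 and 17) reached the floor. All 7 mast cell markers above the floor read higher in the CD2-positive subclone, opposite to FAS and TNFRSF10D, beside 41.9% of all compared genes with a positive difference. They ranged from KIT, the stem cell factor receptor (1373 against 1328, 0.05), and GATA2 (0.14) to the prostaglandin D synthase gene HPGDS (187 against 80, 1.22) and the protease gene CPA3 (1220 against 207, 2.56). The last 2 passed 2-fold, a rule that called 1.21% of all compared genes higher, and the part of that shift in the results below was not tested.

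The 2 members past 2-fold were a decoy receptor and a death receptor, and both read lower in the CD2-positive subclone. TNFRSF10D was 6.82-fold lower and FAS 2.31-fold lower, whereas no member was 2-fold higher. Over all 3564 compared genes the same rules called 0.758% lower and 1.21% higher. TNFRSF10B and CASP8 were lower by less than 2-fold, TNFSF10, TNFRSF1A and FADD differed by 1.04- to 1.18-fold, and TNFRSF10A, TNFRSF10C and FASLG were below the floor. Of the 7 members above it 6 had a negative difference, against 55.7% of all compared genes, and their median of -0.54 stood beside -0.05 for all compared genes. Because the contrast was used to propose the genes, these shares describe the choice as much as the subclones. TNFRSF10D (11 against 75) and CASP8 (60 against 87) reached the floor only on the CD2-negative array, where they read higher. CASP8 is also the member at the median, so both the count and the median rest in part on this way of entry.

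**Figure D1:**
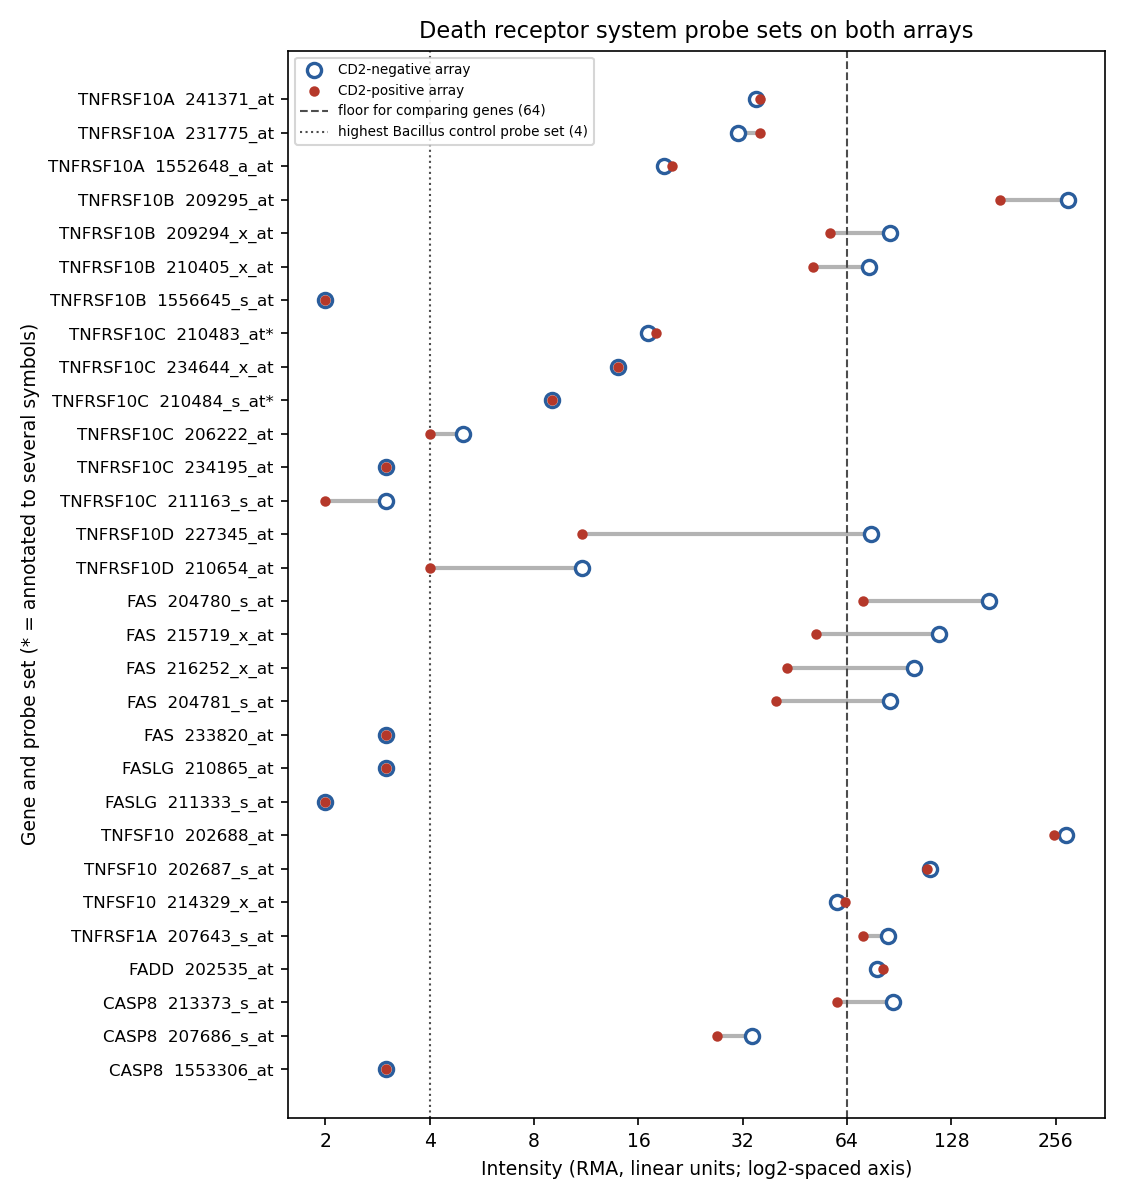
Intensity of each of the 30 probe sets (rows) on the CD2-positive array (filled red points) and the CD2-negative array (open blue circles), on a log2-spaced axis, with the floor of 64 and the highest Bacillus control reading of 4 as vertical lines. Long grey bars are seen for TNFRSF10D and for 4 of the 5 FAS probe sets, and the points of TNFRSF10A, TNFSF10 and FADD nearly coincide.

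The TRAIL decoy receptor TNFRSF10D had the largest difference among the members. Its brighter probe set, 227345_at, read 11 on the CD2-positive against 75 on the CD2-negative array, a log2 difference of -2.77. The second probe set, 210654_at, stayed below the floor at 4 against 11, a log2 difference of -1.46. Both were therefore low on the CD2-positive array, and the reading of 4 equals the highest Bacillus control. Among the 3564 compared genes only TCN1, the gene of a vitamin B12-binding protein, had a more negative difference. Rounding of the deposited values to whole numbers allows a difference between -2.85 and -2.70, and adding 16 to every intensity, for an unknown background, gave -1.75, so the size of the fold rests on how low signals were treated.

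FAS, the receptor of FAS ligand, was lower in the CD2-positive subclone on every probe set above the floor. Probe set 204780_s_at read 71 against 164, 215719_x_at 52 against 118, 216252_x_at 43 against 100 and 204781_s_at 40 against 85. The 4 log2 differences lay between -1.22 and -1.09 (SD 0.06 over the 4 probe sets, which interrogate the same RNA samples and are not replicates). That range of 0.13 can be read beside the 67 genes with 4 or more probe sets above the floor, where the median range was 0.24. The fifth probe set, 233820_at, read 3 on each array, at the level of the Bacillus controls. By its representative probe set FAS had the 14th lowest difference of all compared genes. Only 233820_at has an identifier without the suffixes that mark possible matches to several transcripts, so a choice of plain identifiers leaves FAS with no measurable signal.

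Promoter stretches are shown for FAS, the member with the most probe sets in agreement, and, for contrast, for CASP8, which differed less, and TNFSF10, which hardly differed. RefSeq windows (GRCh38.p14) were held for 6 of the 10 genes, and each line gives the 250 bases before the first listed start of its gene. Capitals mark matches on either strand to the GC box with the letters GGGCGG, the TATA box with TATAAA, the CCAAT box, the AP-1 site with TGACTCA or the p53 decamer, and none of the matches overlap in these stretches. The stretches lie at chr10:88990548-88990797 on the plus strand for FAS, chr2:201233213-201233462 on the plus strand for CASP8 and chr3:172523431-172523680 on the minus strand for TNFSF10.
FAS: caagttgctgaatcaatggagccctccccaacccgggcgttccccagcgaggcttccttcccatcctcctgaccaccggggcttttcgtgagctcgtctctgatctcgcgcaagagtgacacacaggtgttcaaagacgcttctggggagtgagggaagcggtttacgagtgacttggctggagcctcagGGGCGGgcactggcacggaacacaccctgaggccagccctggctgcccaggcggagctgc
CASP8: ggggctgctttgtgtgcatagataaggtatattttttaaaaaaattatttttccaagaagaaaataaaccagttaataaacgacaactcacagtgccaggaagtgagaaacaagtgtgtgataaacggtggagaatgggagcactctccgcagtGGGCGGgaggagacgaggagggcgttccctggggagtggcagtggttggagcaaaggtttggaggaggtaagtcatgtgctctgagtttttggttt
TNFSF10: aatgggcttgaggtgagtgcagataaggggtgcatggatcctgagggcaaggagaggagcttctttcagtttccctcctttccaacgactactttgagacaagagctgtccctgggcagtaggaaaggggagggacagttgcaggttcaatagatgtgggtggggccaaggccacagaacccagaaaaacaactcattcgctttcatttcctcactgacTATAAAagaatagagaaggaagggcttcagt
The FAS and CASP8 stretches each held a single GC box, a motif found in 42.6% of all 35116 windows of this length, and no other motif searched. The TNFSF10 stretch held a TATA box, found in 10.7% of windows, and no GC box. G and C made up 62.8% of the FAS, 45.6% of the CASP8 and 49.6% of the TNFSF10 stretch, with a median of 58% over all windows. Counting all 10 windows of the 6 genes, the p53 decamer, found in 5.57% of windows, matched a second FAS window and a second CASP8 window. The CCAAT box matched a CASP8 window and that of TNFRSF1A (32% of windows), and the AP-1 site a CASP8 window (4.2%). These are letter matches and not evidence of binding.

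**Figure D2:**
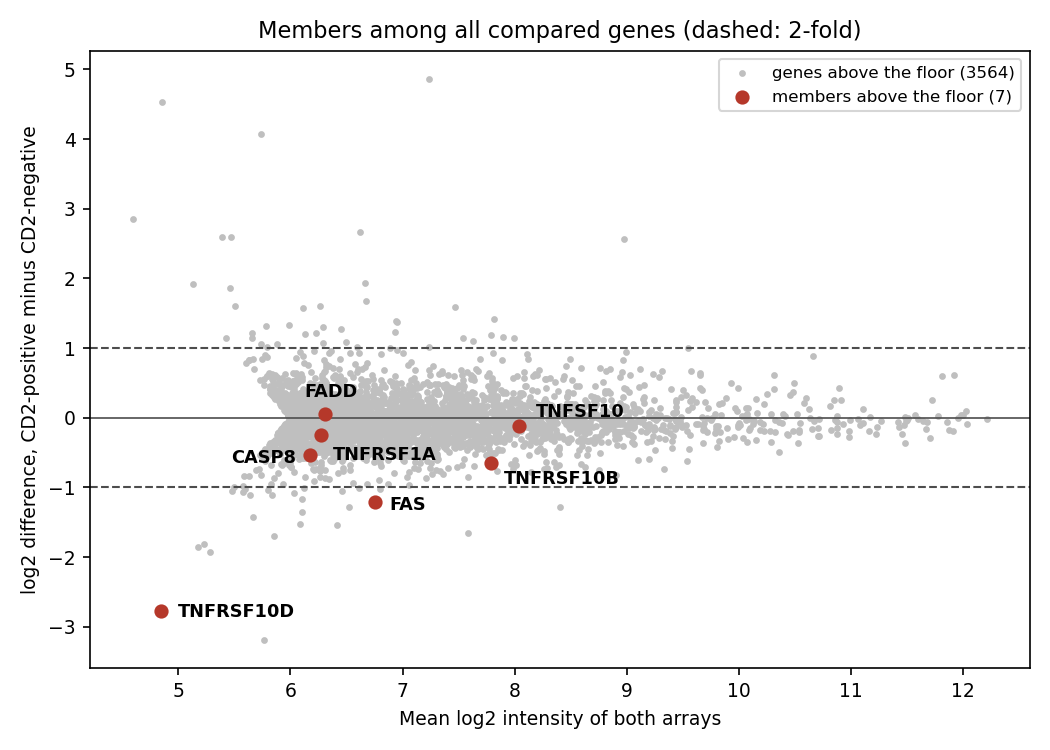
Log2 difference against mean log2 intensity for the 3564 genes above the floor (grey points) and the 7 members above it (red points), with dashed lines at 2-fold in either direction. TNFRSF10D at -2.77 and FAS at -1.21 lie below the lower line, TNFRSF10B and CASP8 between that line and 0, and TNFSF10, TNFRSF1A and FADD in the dense band around 0.

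The signalling receptors for TRAIL differed from each other in their readings. TNFRSF10B, which encodes DR5, read 177 on the CD2-positive against 277 on the CD2-negative array, a log2 difference of -0.65 or 1.56-fold lower. Its other probe sets above the floor, 209294_x_at at 57 against 85 and 210405_x_at at 51 against 74, gave -0.58 and -0.54. The remaining one, 1556645_s_at, read 2 on each array. All 3 readings above the floor were thus lower by a similar amount, and TNFRSF10B was the only further member past 1.5-fold, a rule that called 3.82% of all compared genes lower and 4.29% higher. TNFRSF10A, which encodes DR4, stayed below the floor in both subclones. Its probe sets read 36 against 35, 36 against 31 and 20 against 19, with log2 differences from 0.04 to 0.22. Rounding to whole numbers allows a difference of 0 for 241371_at and 1552648_a_at. Only 231775_at, at 36 against 31, was slightly higher in the CD2-positive subclone beyond rounding.

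TNFRSF10C, the decoy receptor that lacks a cytoplasmic part, was not above the floor on any of its 6 probe sets. The brightest probe set assigned to it alone, 234644_x_at, read 14 on each array, and the other 3 read 2 to 5. Another pair of probe sets, annotated to both TNFRSF10C and LOC254896, read 18 against 17 and 9 against 9, and their signal was assigned to neither gene. A lower reading was therefore seen for the decoy TNFRSF10D and not for the decoy TNFRSF10C, but the low signal of the latter sets a limit on what its probe sets could show. The TRAIL receptor genes are related in sequence, and the cross-hybridisation of their probe sets was not examined.

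The ligands showed no difference of size. TNFSF10, which encodes TRAIL, read 253 against 274 on its brightest probe set and 109 against 111 on the second, with log2 differences of -0.12 and -0.03, and 63 against 60 on the third, just below the floor, with 0.07. The first of these turned to 0.07 when the arrays were centred on the hybridisation controls, so TRAIL had no settled direction. FASLG, the gene of FAS ligand, read 3 on each array by 210865_at and 2 on each by 211333_s_at, at the level of the Bacillus controls. Signal for the TRAIL ligand was thus well above the floor in both subclones, and none was seen for the FAS ligand.

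Among the shared components, CASP8 read lower and FADD did not. CASP8, the initiator caspase, read 60 against 87 by 213373_s_at, a log2 difference of -0.54 or 1.45-fold lower. Its probe set 207686_s_at, below the floor, read 27 against 34 (-0.33), and 1553306_at read 3 on each array. FADD, the adaptor between receptor and caspase, had 1 probe set, which read 81 against 78 (0.05). TNFRSF1A, also with 1 probe set, read 71 against 84 (-0.24), and this difference shrank to -0.06 with centring on the hybridisation controls. That centring, which moved the median of all compared genes from -0.05 to 0.14, left TNFRSF10D at -2.59, FAS at -1.03, TNFRSF10B at -0.46 and CASP8 at -0.35. As a measure of probe behaviour within the arrays, the gap between the differences of a gene's 2 brightest probe sets had an SD, divided by the square root of 2, of 0.13 over 937 genes. The differences of TNFSF10 and FADD were smaller than this value and those of TNFRSF10D, FAS, TNFRSF10B and CASP8 were several times larger, but the value holds no variation between cultures or hybridisations. It comes from genes with at least 2 probe sets above the floor, whereas TNFRSF10D, CASP8, TNFRSF1A and FADD each had 1. The probe sets of TNFRSF10D, at -2.77 and -1.46, lay much further apart than this value.

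**Figure D3:**
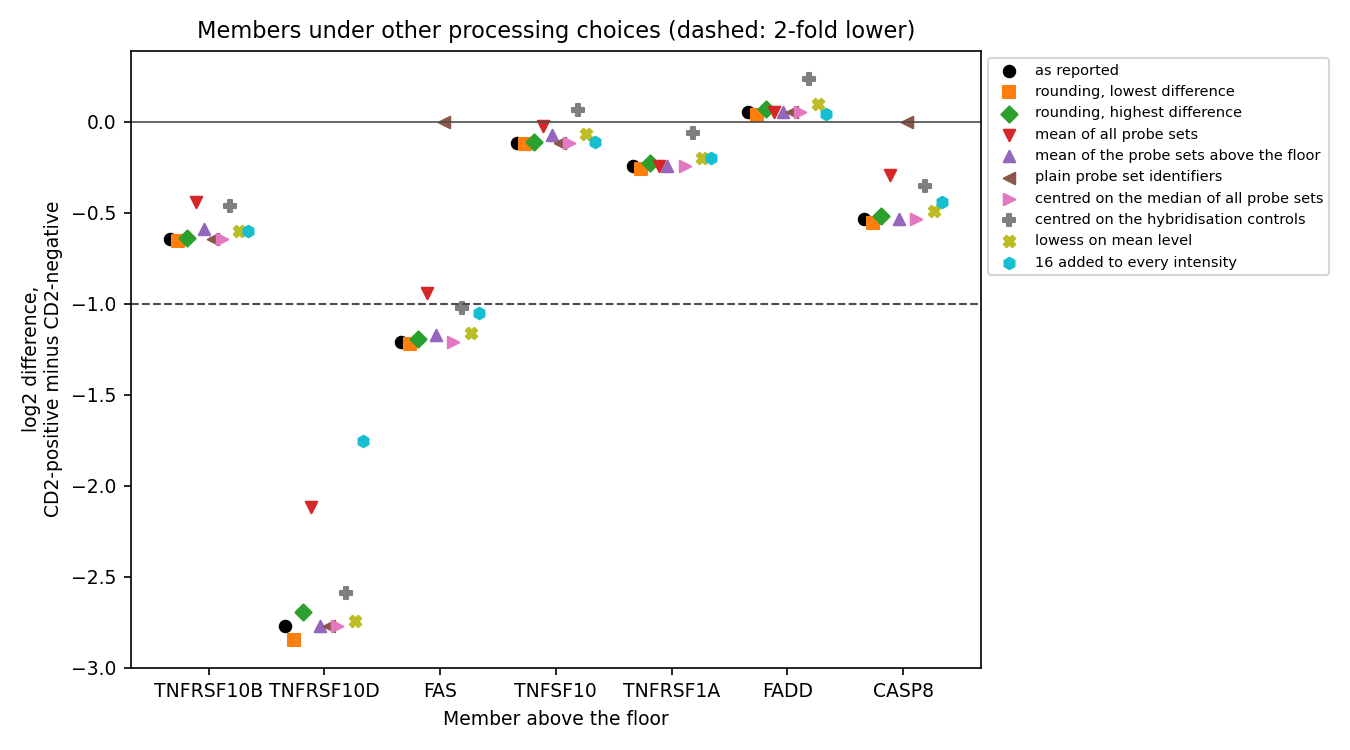
Log2 difference of each of the 7 members above the floor (x axis) as reported (black circles) and under 9 other processing choices (other symbols), with a dashed line at 2-fold lower. TNFRSF10D stayed below the line in every setting drawn, FAS crossed it when all its probe sets were averaged and read 0 with plain identifiers, where its remaining probe set is at 3 on each array.

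Among the neighbouring genes above the floor none differed 2-fold from 1 subclone to the other. The 4 TRAIL receptor genes lie in a cluster on chromosome 8 in the RefSeq order, and their differences ran from -2.77 for TNFRSF10D through -0.65 for TNFRSF10B to 0.00 for TNFRSF10C and 0.04 for TNFRSF10A. Of the 20 measured genes around TNFRSF10D, 10 on each side, only TNFRSF10B was above the floor. The nearest 20 that reached it had a median of -0.05 and ranged from -0.65 to 0.57, with none past 2-fold. FAS lies on chromosome 10, where the nearest 20 genes to reach the floor gave a median of 0.00, a range from -0.60 to 0.61 and also none past 2-fold. Among the 20 measured genes around FAS only LIPA (229 against 224) and the interferon-induced gene IFIT3 (80 against 99) were above the floor. Counting readings below the floor too, 8 of the 10 genes around FAS with a difference other than 0 were lower and 2 higher. The lower ones included IFIT1 (4 against 9, -1.17), IFIT2 (28 against 50, -0.84), PANK1 (7 against 11, -0.65) and ACTA2 (37 against 57, -0.62). Around TNFRSF10D the same count gave 7 lower and 6 higher of 13. No share over all genes is given here for readings below the floor, and the lower IFIT1 reading equals the highest Bacillus control. The antisense and divergent transcripts FAS-AS1, TNFRSF10B-AS1 and TNFRSF10A-DT read 2 or 3 on both arrays. CASP8 lies on chromosome 2, where the corresponding 20 genes gave a median of -0.01.

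**Figure D4:**
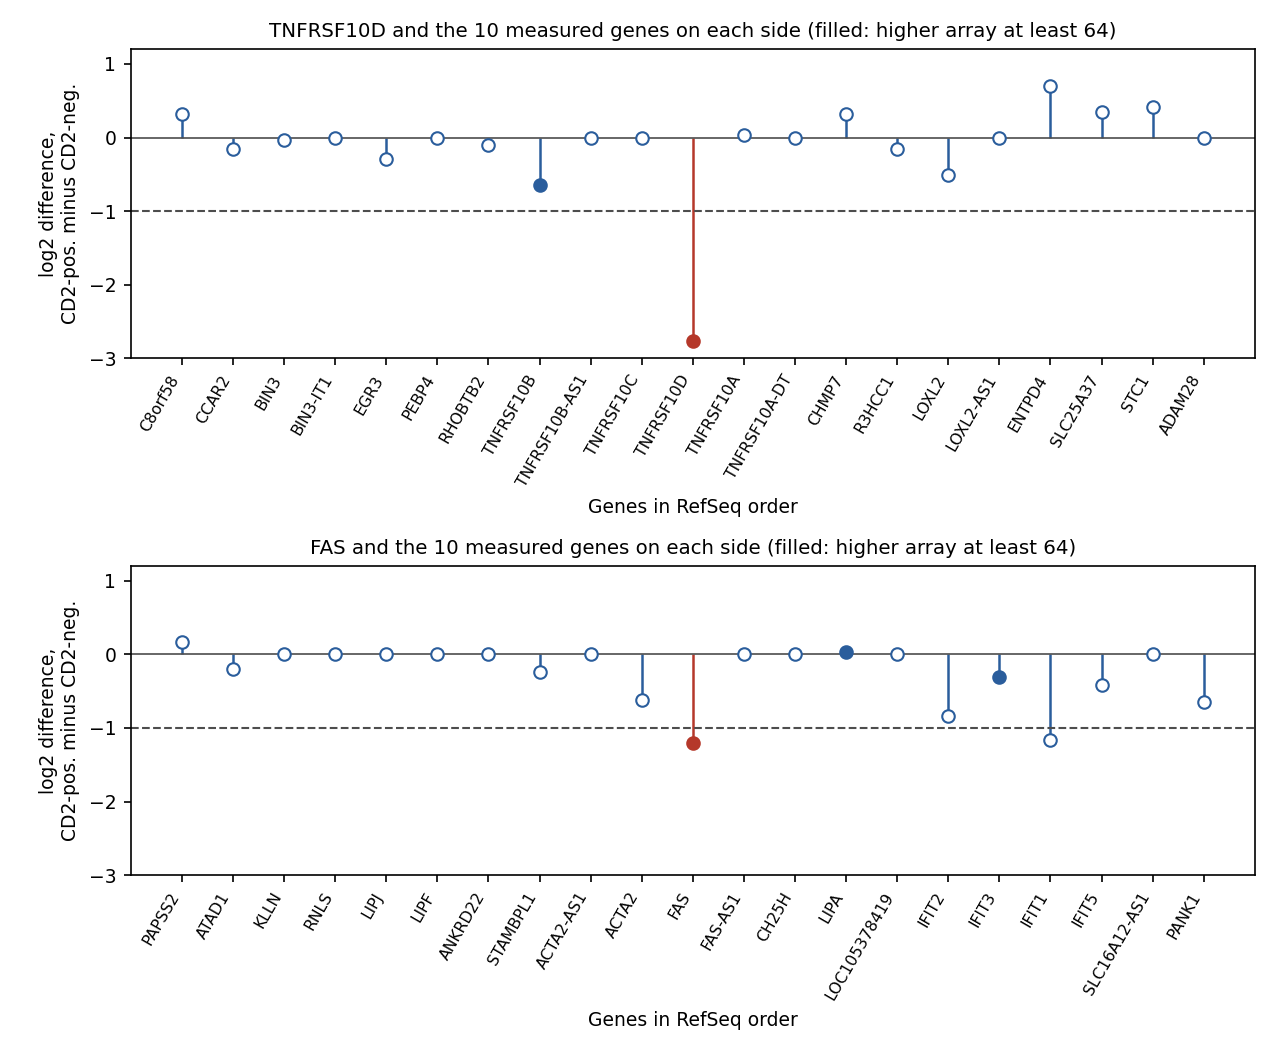
Log2 differences (vertical axis) of TNFRSF10D (upper panel) and FAS (lower panel), in red, and of the 10 measured genes on each side in RefSeq order, in blue, with filled points for genes whose higher array reached 64 and a dashed line at 2-fold lower. The member is the lowest point of its panel, and only TNFRSF10B, LIPA and IFIT3 among the neighbours are filled.

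No gene of the wider death receptor lists above the floor was 2-fold higher or lower. In a list of 11 other death-domain and decoy receptors and TNF ligands, 10 were measured and none reached the floor, with readings that ranged from 2 to 11. TNFRSF21 (DR6) was at 11 on each array, and the most negative difference, that of LTB at 6 against 9, lay near the controls. Of 22 adaptors, kinases and regulators 19 were measured and 7 were above the floor, of which 6 had a negative difference, beside 55.7% of all compared genes. None passed 2-fold, and 2 of the 7, RBCK1 and CYLD, were at least 1.5-fold lower, beside 3.82% of all compared genes. The median of the 7 was -0.20. RBCK1 and CYLD reached the floor only on the CD2-negative array, where they read higher. Each did so by 1 probe set, of 3 for RBCK1 and 7 for CYLD. RBCK1, a subunit of the linear ubiquitin ligase that acts at the TNF receptor, was lowest at 43 against 78 (-0.86), and PEA15, a death-effector-domain protein, highest at 248 against 240 (0.05). Genes of this list singled out after their values were seen include CYLD (60 against 99, -0.72) and TNFAIP3 (69 against 100, -0.54). Both encode deubiquitinases that restrain TNF receptor signalling. CFLAR, the gene of the caspase-8 inhibitor FLIP, was below the floor at 42 against 54. FAIM, also below the floor, went the other way at 20 against 9 (1.15). With readings below the floor counted, that was the largest difference of the list.

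Of 14 genes for caspases and the mitochondrial link, 12 were measured and 7 were above the floor, with 5 negative (beside the 55.7% of all compared genes), 1 positive and 1 equal. None passed 1.5-fold and the median was -0.18. XIAP, an inhibitor of effector caspases, was lowest at 143 against 188 (-0.39), with differences from -0.56 to -0.33 over its 5 probe sets above the floor. HTRA2, a mitochondrial protease that binds XIAP when released, was highest at 72 against 52 (0.47). BID, the substrate through which caspase-8 reaches the mitochondria, read 66 on each array. Centring on the hybridisation controls brought the medians of the regulator and caspase lists to -0.02 and 0.01, beside 0.14 for all compared genes. Taken alone, the former had no clear direction and the latter changed sign. The shift was the same for every gene, and both medians stayed below that of all compared genes.

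FAS and TNFRSF10B also belong to the genes that p53 is known to induce. The listed genes of this set that were above the floor read lower in the CD2-positive subclone, but the list was not blind to the values. Of 23 listed p53 targets 20 were measured and 16 were above the floor, and all 16 had a negative difference, beside 55.7% of all compared genes. Their median was -0.49, and 4 of the 16 were at least 2-fold lower and none 2-fold higher. Over all compared genes these rules called 0.758% lower and 1.21% higher. Without FAS and TNFRSF10B the remaining 14 were all negative with a median of -0.44. Those past 2-fold besides FAS were TIGAR, a regulator of glycolysis (20 against 70, -1.81), PMAIP1, the gene of the cell death protein NOXA (31 against 83, -1.42), and MDM2, the ubiquitin ligase that degrades p53 (61 against 127, -1.06). The other MDM2 probe set above the floor gave -0.92, and that of PMAIP1 gave -1.93. TIGAR, PMAIP1, MDM2, SESN1 (41 against 79) and AEN (50 against 72) reached the floor only on the CD2-negative array, where they read higher. The counts of this list rest in part on that way of entry. CDKN1A, the cell cycle inhibitor p21, read 293 against 353 (-0.27), and BAX was closest to 0 (73 against 76, -0.06). Of the 4 measured targets below the floor, PLK3 (52 against 48, 0.12) and PHLDA3 (9 against 8, 0.17) read higher. The others, RRM2B (24 against 34, -0.50) and TP53I3 (16 against 28, -0.81), read lower.

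The list of p53 targets was drawn up knowing that several of these genes were low, which limits what its counts show. With centring on the hybridisation controls 14 of the 16 stayed negative with a median of -0.31, BAX (0.12) and TP53INP1 (0.02) turned positive, and MDM2 no longer passed 2-fold (-0.88). Under that centring 1097 of the 3564 compared genes were negative, and the median of all compared genes was 0.14. PMAIP1 lies on chromosome 18 where the 18 nearest genes that reached the floor gave a median of -0.41, and MDM2 and TIGAR on chromosome 12 among genes with medians of -0.15 and 0.08. The part of the shift around PMAIP1 in its difference was not tested.

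**Figure D5:**
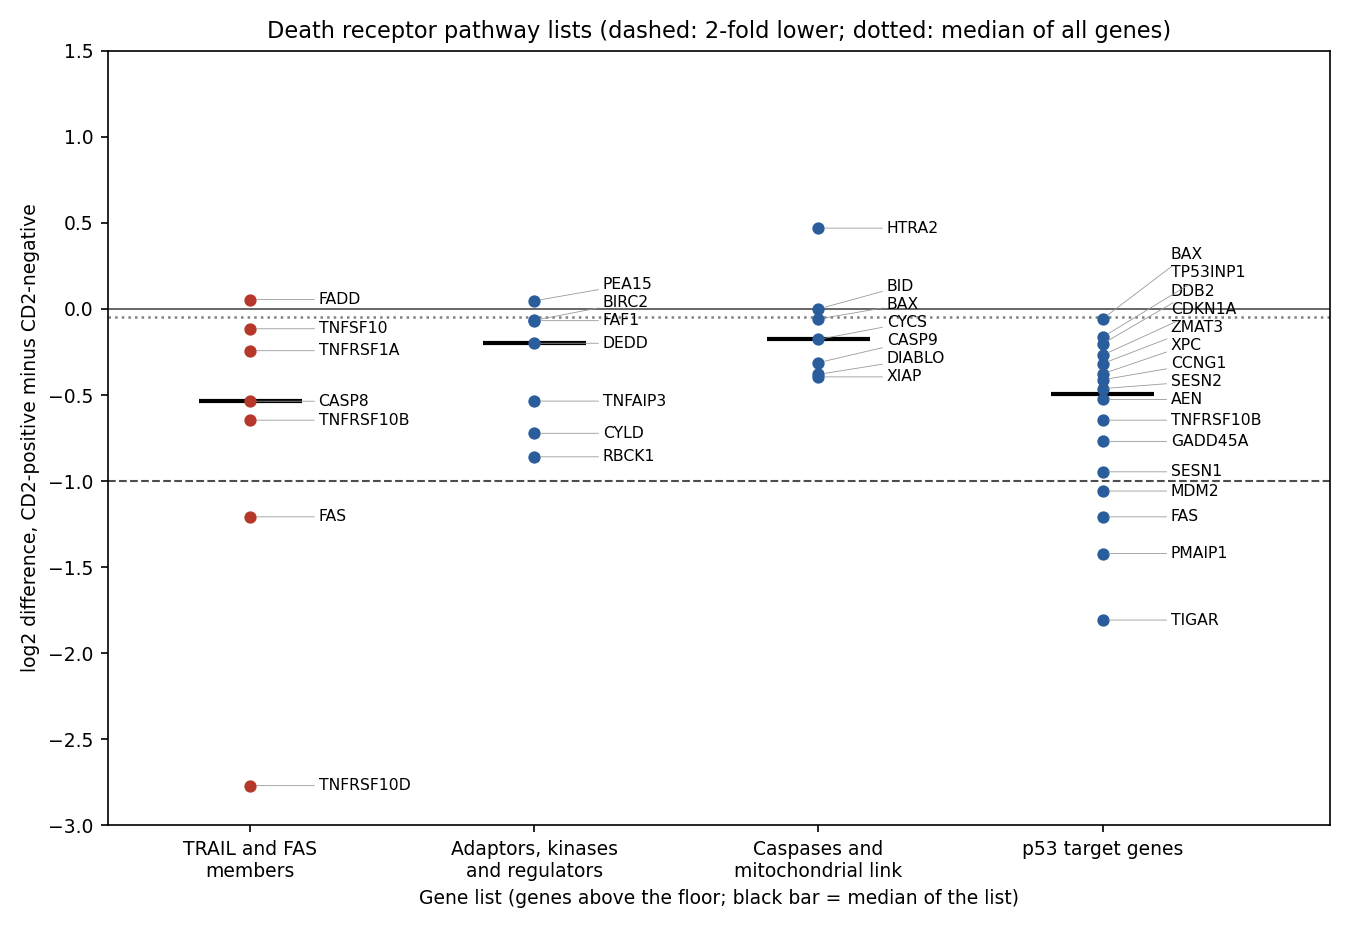
Log2 difference (vertical axis) of each gene above the floor in 4 lists (columns), with the list's median as a black bar, a dashed line at 2-fold lower and a dotted line at the median of all compared genes. Medians lie at -0.54 for the members, -0.20 for regulators, -0.18 for caspases and -0.49 for p53 targets, the last of which has no point above 0.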

How the data were processed

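Total RNA of each subclone was isolated on Qiagen columns, per the labels' protocols, and hybridised to 1 array. The authors deposited 1 intensity per probe set after RMA normalisation, and the submitters' processing notes name Affymetrix Expression Console 1.1. That they are on a linear scale and rounded to whole numbers was seen in the values. For the variant of background correction, not given in the sources used here, low readings would be most sensitive.

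Intensities were converted to log2 without an offset. Probe sets were named by the platform annotation, updated through Entrez identifiers to RefSeq (41043 of 41097 probe sets with 1 symbol); 1801 with several symbols and 11777 unnamed were left out of gene values. A gene was represented by its brightest probe set over both arrays. Genes were compared where the higher array reached log2 6, an intensity of 64, and called at 2-fold. No p-value was computed, since each group held 1 array, and the number of arrays limits precision.

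Named were every member, list members past 2-fold or at either extreme, and the 3 genes nearest in difference to each member past 2-fold. Other genes were named outside this rule, among them BID, CDKN1A, TNFRSF21, TP53INP1, GATA2 and neighbours of FAS below the floor. Members and lists were chosen with earlier results of these data known. Alternatives were other floors, folds, probe-set choices, centrings, a lowess with a span of 0.3, an offset of 16 and rounding bounds. Python 3.11.15, pandas 2.3.3 and statsmodels 0.14.6 were used.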

Additional observations from a re-analysis of the deposited data

How the results depend on the processing

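With 1 array per subclone no replicate could be left out. No paired analysis was possible because each group held 1 array. No member was 2-fold higher under any of the 12 other settings applied to the counts. The count of 2 members at least 2-fold lower became 1 at a floor of log2 7 (TNFRSF10D left out), 1 with a 3-fold rule (FAS not called), 1 with plain probe set identifiers and 0 when all probe sets of a gene were averaged, where neither gene reached the floor. It was 3 with a 1.5-fold rule and 2 under the other 7. The median of the members, -0.54 as reported, was -0.39 at a floor of log2 5, -0.18 with no floor, -0.024 with that average, -0.38 with plain identifiers and -0.35 when centred on the hybridisation controls, and within 0.13 of the reported value otherwise. The mean over probe sets above the floor was chosen after seeing the data and gave a count of 2. TNFRSF10D lay between -2.85 and -1.75 and FAS between -1.22 and 0 over 9 settings each. The numbers of genes called over the whole array moved from 43 higher and 27 lower to 71 and 14 with the hybridisation controls. Readings near 4 limit what could be seen for FASLG, TNFRSF10C and the second TNFRSF10D probe set.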

Other observations

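Over these 2 arrays likeness to a member can only mean a similar log2 difference. The genes nearest to FAS (-1.21) in difference were ENTREP3 (46 against 103, -1.16), PTGDS, which encodes a prostaglandin D synthase (217 against 528, -1.28), and PLAT, the gene of tissue plasminogen activator (59 against 144, -1.29). TNFRSF10D had no near neighbour in this sense. The closest genes were TCN1 (18 against 164, -3.19), the delta-globin gene HBD (20 against 76, -1.93) and TSPYL5 (19 against 69, -1.86), which differ from it by 0.42, 0.84 and 0.91 on the log2 scale.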
